A study of Mus musculus with 34 samples.

Results

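Contact of the immunoglobulin heavy chain locus Igh with the stretch of chromosome 12 around the plasma cell gene Sdc1 was measured by circular chromosome conformation capture (4C) in 2 mouse plasmacytomas. The stretch comprises 13 of the 12836 consecutive windows of 200 kb that tile the mouse genome build mm9, from 7.4 to 10 Mb of chromosome 12. Sdc1 lies near 8.8 Mb, beside Pum2 and Laptm4a. The windows were chosen by position, with the read counts of all 4 libraries already known, so the contact levels and the difference between the tumors within the stretch are descriptions and no test is attached to them. The 4 windows from 8.4 to 9.2 Mb are called the island here. The 5 windows from 7.4 to 8.4 Mb are the lower flank, and the 4 windows from 9.2 to 10 Mb are the upper flank.

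Plasmacytomas are tumors of antibody-secreting plasma cells. Both tumors, TEPC1165 and PCT4961, came from mice of the Balb/c strain, and the labels give PCT4961 the genotype AID-/- BclXL. AID is the enzyme that starts class switching and hypermutation of antibody genes, and Bcl-xL protects cells from programmed death. The labels name no genotype or treatment for TEPC1165 and no age for either tumor. Each tumor had 2 libraries, which the labels do not tie to separate cultures, so the spread between them may be technical, and with 1 tumor of each kind a difference between tumors is not a difference between genotypes. The other 30 samples of the series were not used here, and 4C does not show whether Sdc1 or any other marker of plasma cells was expressed.

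In 4C, chromatin is cross-linked, cut with HindIII and ligated, and the sequences joined to one bait fragment, here in Igh, are read. A fragment yields many reads when it often lies near the bait in the nucleus or is joined to it in the DNA. Sdc1 encodes syndecan-1 (CD138), a heparan sulfate proteoglycan of the cell surface that marks plasma cells and plasma cell tumors. Pum2 encodes an RNA-binding protein of the Pumilio family that represses translation of its target messages, and Laptm4a encodes a membrane protein of late endosomes and lysosomes. In the gene order of GRCm38 these 3 genes follow one another as Pum2, Sdc1 and Laptm4a. Towards lower coordinates come Slc7a15, Rhob (a small GTPase), Hs1bp3, Gdf7 (a growth factor of the BMP family), Ldah and Apob (apolipoprotein B). Towards higher coordinates come Matn3 (a cartilage matrix protein), Wdr35 (a protein of ciliary transport), Ttc32, Osr1 (a transcription factor of kidney and limb development), Nt5c1b and Rdh14. Gene positions in mm9 were not used here, so a window's reads are not assigned to one gene.

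The 250 bases before the start of Sdc1, the plasma cell gene of the stretch, are shown as the RefSeq table gives them (GRCm38.p6, chr12:8771146-8771395, plus strand, a build that differs from that of the windows). Capitals mark matches to the GC box GGGCGG, a motif bound by Sp1-family factors, which was searched on both strands.
Sdc1: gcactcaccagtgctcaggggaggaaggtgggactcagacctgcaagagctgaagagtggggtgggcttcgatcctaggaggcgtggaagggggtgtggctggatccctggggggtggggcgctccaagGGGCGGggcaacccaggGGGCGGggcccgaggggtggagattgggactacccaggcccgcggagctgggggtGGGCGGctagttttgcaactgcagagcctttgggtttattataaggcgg
The sequence holds 3 GC boxes, and 32.7% of the 32851 promoters in the table hold at least 1. No HindIII site (AAGCTT, its own reverse complement) occurs in it, in the 3 entries of Pum2 or in the entry of Laptm4a, and 6.22% of the promoters in the table hold at least 1. The 3 entries of Pum2 held 1, 0 and 2 GC boxes and that of Laptm4a 0. What 4C captures at these genes are the ends of the HindIII fragments around them, at sites that lie outside these 250 bases.

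The PCT4961 libraries held 1048003 and 1366466 reads outside the bait region and the TEPC1165 libraries 1735257 and 1569886. The bait region is the 11 windows within 1 Mb of the highest window of chromosome 12. RPM gives a window's reads scaled to a total of 1000000 reads outside that region. Most windows of a library had few or no reads: 60.3% to 67.1% of the windows of the autosomes other than 12 and 15 had none. Libraries of different tumors with the same replicate number deviated together across the 3449 tested windows (Pearson r = 0.66 on log2(RPM + 1), across windows, which are not independent replicates). Whether such libraries share reads was not tested.

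The Igh bait of PCT4961 contacted the island strongly, and far more than the sequence on either side of it. The 4 windows held 17153 and 28330 reads, or 1.64% and 2.07% of the reads outside the bait region (95% Wilson intervals 1.61% to 1.66% and 2.05% to 2.10%, for counting error only). The mean was 4637 ± 772 RPM per window (SD, n = 2). In TEPC1165 the island held 2806 and 1134 reads, or 0.162% and 0.0722%, with a mean of 292 ± 158 RPM per window. The island's read share was 10.1 times higher in PCT4961 between the libraries numbered 1 and 28.7 times between those numbered 2, and both PCT4961 libraries lay above both TEPC1165 libraries.

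**Figure D1:**
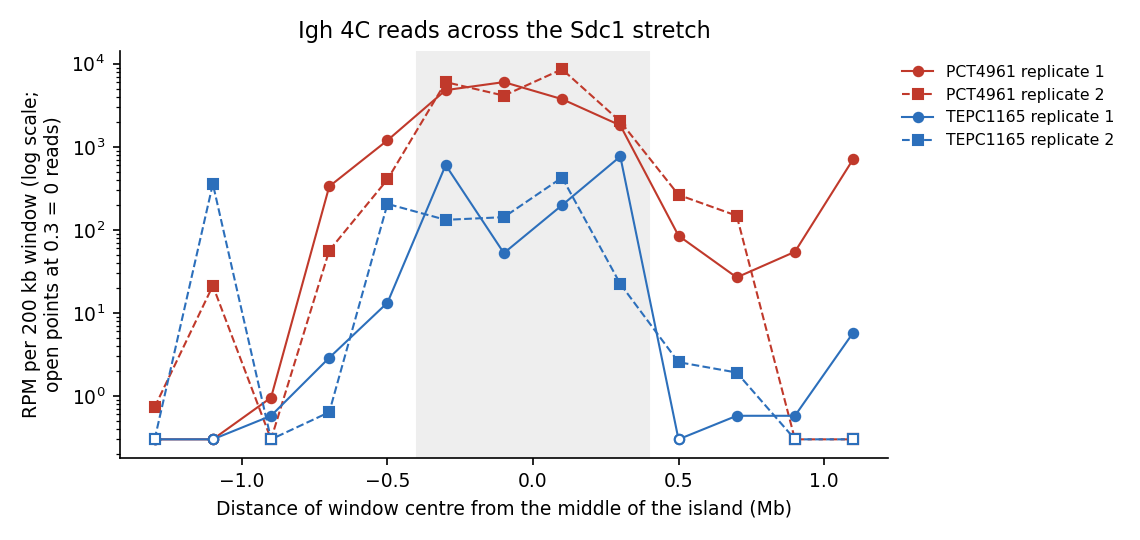
Scaled reads (RPM, log axis) in each of the 13 windows, by distance of the window from the middle of the island at 8.8 Mb; each line is 1 library, open points mark windows with 0 reads and the grey band is the island. Both PCT4961 libraries sit between 1809 and 8578 RPM in the band and fall to at most 1196 RPM outside it, and both TEPC1165 libraries lie below them in the band.

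Within the island the window order differed between libraries. Window 12:8400001-8600000 had 5038 and 8207 reads in PCT4961 and 1044 and 207 in TEPC1165. Window 12:8600001-8800000 had 6295 and 5645 reads in PCT4961 and 91 and 223 in TEPC1165. Window 12:8800001-9000000 had 3924 and 11721 reads in PCT4961 and 344 and 669 in TEPC1165. Both PCT4961 libraries were above both TEPC1165 libraries in each of these windows, also in RPM. In RPM this order held in 16.2% of all 3449 tested windows. The island windows were chosen with it known, so nothing is read from it. Window 12:9000001-9200000 was the lowest of the island in PCT4961, with 1896 and 2757 reads, and had 1327 and 35 reads in TEPC1165. It was the highest island window of TEPC1165 replicate 1 and the lowest of TEPC1165 replicate 2, so the TEPC1165 libraries did not agree on where the island was highest.

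In PCT4961 the mean levels of the first 3 island windows did not differ beyond the spread of the libraries. They were 5407 ± 848, 5069 ± 1326 and 6161 ± 3418 RPM in order of position, and the fourth was lower at 1913 ± 147 RPM (SD, n = 2 each). The highest window was 12:8600001-8800000 in replicate 1 and 12:8800001-9000000 in replicate 2. It held 36.7% and 41.4% of the island's reads, so contact was not carried by a single window. In TEPC1165 the means were 367 ± 332, 97.2 ± 63.4, 312 ± 161 and 394 ± 525 RPM, and their spreads overlapped throughout. There the highest window held 47.3% and 59.0% of the reads.

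The island was bounded on both sides in PCT4961. Just inside and just outside its upper edge lay 1896 and 2757 reads against 89 and 360 in 12:9200001-9400000. The lower edge was more gradual: 12:8200001-8400000 had 1253 and 552 reads and 12:8000001-8200000 had 349 and 77. Below these, the 3 windows from 7.4 to 8.0 Mb held 1 read in replicate 1 and 30 in replicate 2, of which 29 lay on 1 fragment of 12:7600001-7800000. On the upper side 12:9400001-9600000 had 28 and 202 reads, 12:9600001-9800000 had 57 and 0, and 12:9800001-10000000 had 742 and 0. Those 742 reads lay on 2 of 68 fragments. A count of 0 allows up to 3 reads, which is 2.86 RPM in PCT4961 replicate 1 and 2.20 RPM in replicate 2.

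Summed over both flanks, PCT4961 had 2519 and 1221 reads in 9 windows. The mean island window was 15.3 and 52.2 times as high as the mean flank window. Replicate 2 had more reads in the island and fewer in the flanks than replicate 1. By the share of HindIII fragments detected, which ignores how many reads a fragment holds, the island was 7.28 and 12.8 times the flanks.

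In TEPC1165 the island also stood above its upper flank in both libraries, and the lower side differed between the libraries. Its upper flank held 12 and 7 reads in all, and the mean island window was 234 and 162 times as high, against 18.7 and 50.4 times in PCT4961. Those few reads lay on 3 and 2 of 302 fragments, so the TEPC1165 ratios are unsure. By detected fragments the island was 18.5 and 34.7 times the upper flank in TEPC1165 and 12.6 and 21.1 times in PCT4961. In the lower flank 12:8200001-8400000 had 23 and 322 reads, and 12:8000001-8200000 had 5 and 1. The 322 reads of replicate 2 exceeded those of 3 of its 4 island windows. Window 12:7600001-7800000 had 0 reads in replicate 1 and 561 in replicate 2, all on 1 fragment, and PCT4961 replicate 2 had its 29 reads there on 1 fragment too. With those reads the island of TEPC1165 replicate 2 was 2.86 times its flanks, against 154 times in replicate 1. On detected fragments, which such a pile of reads does not move, the ratios were 18.0 in replicate 2 and 8.21 in replicate 1.

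The island held many detected fragments in all 4 libraries. PCT4961 had 76 and 91 of its 261 HindIII fragments detected (29.1% and 34.9%), and TEPC1165 48 and 60 (18.4% and 23.0%). Of the 625 fragments of the flanks PCT4961 had 4.00% and 2.72% detected and TEPC1165 2.24% and 1.28%. Window 12:8800001-9000000 had the most, with 31 and 37 of 68 fragments in PCT4961 and 16 and 24 in TEPC1165. Window 12:8400001-8600000 had 19 and 25 of 63 in PCT4961 and 17 in both TEPC1165 libraries. In 12:8600001-8800000 PCT4961 had 14 and 17 of 59 fragments and TEPC1165 9 and 11. In 12:9000001-9200000 it was 12 of 71 in both PCT4961 libraries and 6 and 8 in TEPC1165. Each island window had more detected fragments in both PCT4961 libraries than in both TEPC1165 libraries. The share of all windows with this order of detected fragments was not computed. The windows were also chosen with these values known, so nothing is read from that order.

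**Figure D2:**
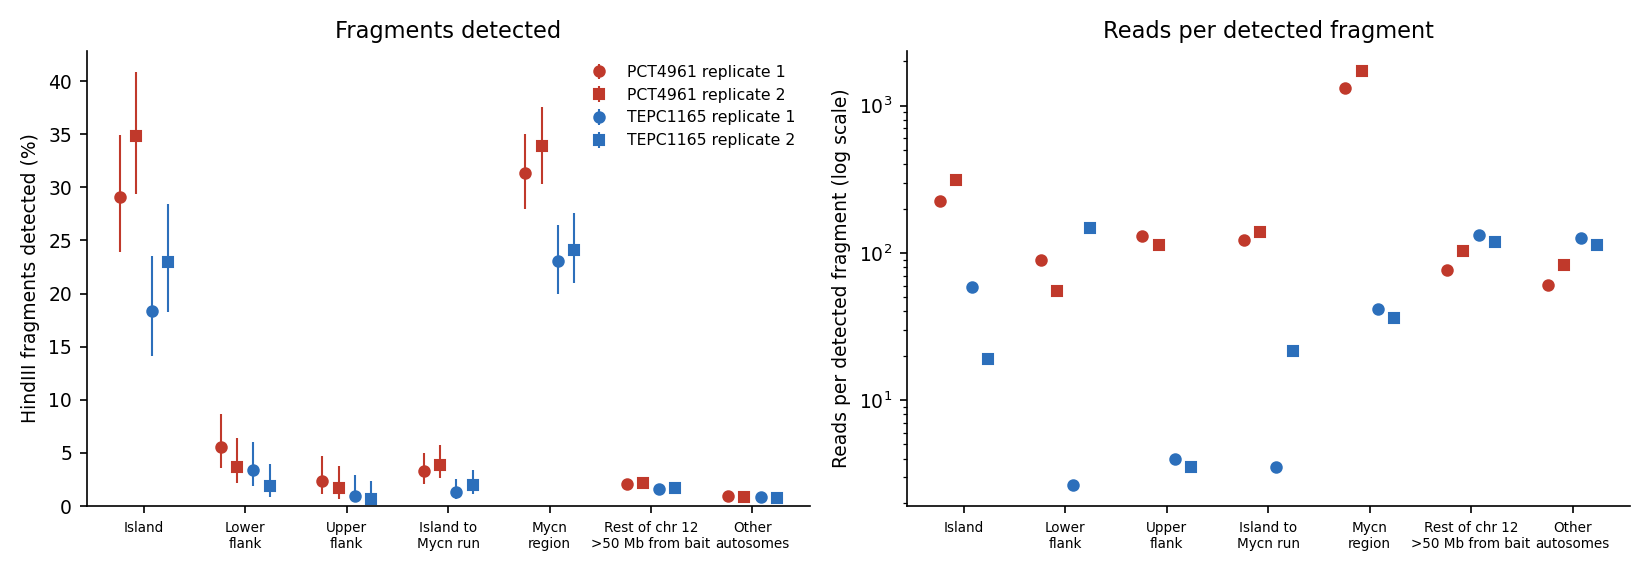
Left, percent of HindIII fragments detected with 95% Wilson intervals; right, reads per detected fragment (log axis), in the island, its flanks, the 9.2 to 11 Mb stretch, the Mycn region, the rest of chromosome 12 more than 50 Mb from the bait, and the autosomes other than 12 and 15; 1 point per library. The island and the Mycn region stand at 18.4% to 34.9% in all 4 libraries and the remaining groups at 5.57% or less, while on the right the TEPC1165 points of the island lie below those of the other autosomes.

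The depth of the detected fragments separated the tumors. The island had 226 and 311 reads per detected fragment in PCT4961, above the 60.4 and 83.3 of the other autosomes in the same libraries. In TEPC1165 it had 58.5 and 18.9, below the 126 and 114 of the other autosomes. The TEPC1165 island was thus marked by many fragments with few reads each. This was not particular to the island. In the Mycn region (12 to 14 Mb) TEPC1165 had 23.0% and 24.1% of fragments detected, with 41.9 and 36.1 reads each. Within the island, replicate 1 of TEPC1165 departed from this low depth in 12:9000001-9200000. There 6 fragments held 221 reads each on average, against 4.38 reads on each of 8 fragments in replicate 2.

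Set against the autosomes other than 12 and 15, the PCT4961 island stood above nearly every window. Their mean window had 34.5 and 33.4 RPM in PCT4961 and 40.0 and 33.3 RPM in TEPC1165. The mean island window was 118 and 155 times as high in PCT4961, and 10.1 and 5.42 times in TEPC1165. None of the 10911 windows of those autosomes reached the reads of 3 of the island windows in either PCT4961 library, and 5 and 1 of them reached those of 12:9000001-9200000. Over 4 adjoining windows, none of 10827 stretches of those autosomes had as many reads as the island in PCT4961. In TEPC1165 42 stretches (0.388%) reached it in replicate 1 and 594 (5.49%) in replicate 2, so its reads there were high but not outstanding. By detected fragments the island was above all of these stretches in all 4 libraries. Their highest values were 21 and 22 fragments in PCT4961 and 19 and 20 in TEPC1165, against 76, 91, 48 and 60 in the island. These stretches overlap one another and lie on other chromosomes than the bait.

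The same held along the bait's own chromosome. In the 277 windows of chromosome 12 more than 50 Mb from the bait, without the Sdc1 stretch and 11 to 14 Mb, PCT4961 had 2.06% and 2.18% of the fragments detected and TEPC1165 1.59% and 1.73%. None of their 265 stretches of 4 windows had as many detected fragments as the island in any library, and the highest had 36. By reads, 13 and 47 of the 265 stretches (4.91% and 17.7%) reached the island in TEPC1165 and none did in PCT4961. The mean island window was 41.4 and 48.1 times their mean in PCT4961 and 5.04 and 2.08 times in TEPC1165.

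The island was separate from the raised contact around Mycn, a gene of the Myc family of transcription factors. Its middle lies 4.1 Mb from the middle of 12:12800001-13000000, the highest PCT4961 window of the Mycn region, which had 170587 and 237211 reads. In the part between them from 9.2 to 11 Mb, PCT4961 had 2448 and 3349 reads in 9 windows, and the mean island window was 15.8 and 19.0 times as high. That part was not at the level of the rest of the chromosome. Its mean window had 260 and 272 RPM, against 98.9 and 108 RPM in the 277 windows more than 50 Mb from the bait. The highest window of 10 to 11 Mb was 12:10200001-10400000, with 776 and 1572 reads on 7 and 9 of 57 fragments. The Mycn region (12 to 14 Mb) held 25.4% and 27.3% of the PCT4961 reads, and its mean window was higher than that of the island, which reached 0.161 and 0.190 of it. In detected fragments both regions were close, with 31.4% and 33.8% in the Mycn region, but the Mycn fragments held 1312 and 1706 reads each. In TEPC1165 the mean island window was 1.12 and 0.504 times that of the Mycn region.

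**Figure D3:**
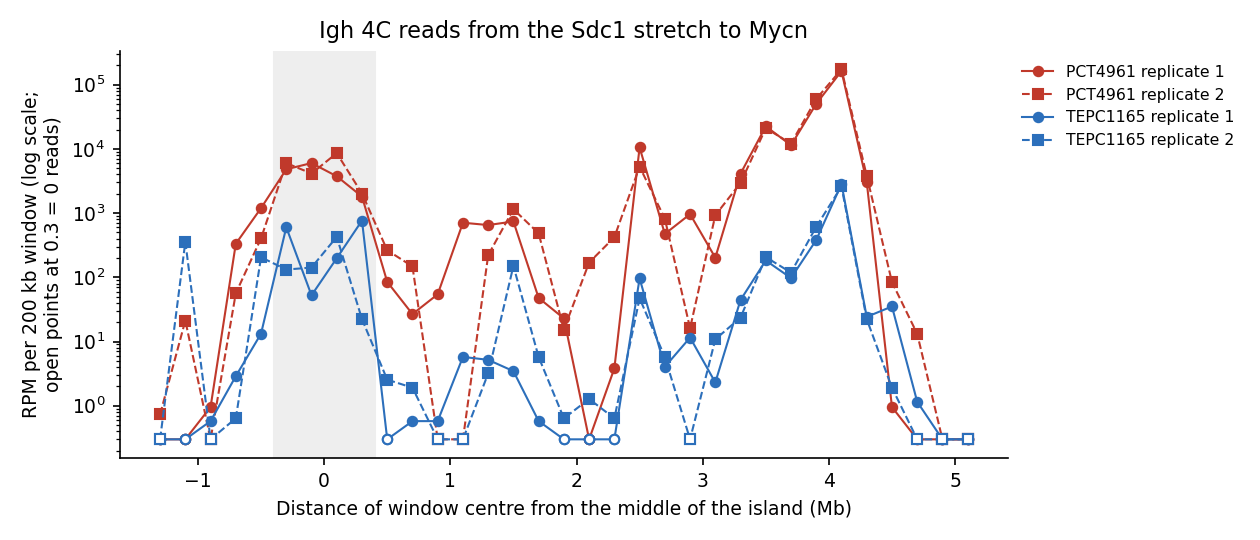
Contact in RPM per window (log axis) by distance from the middle of the island, out to beyond Mycn; lines are libraries, open points mark 0 reads and the grey band is the island. PCT4961 shows the island, a stretch with lower contact and 1 high window at 2.5 Mb. Lower windows follow, and then the rise to the highest Mycn window 4.1 Mb away.

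TEPC1165 reads at the island were a larger part of the PCT4961 reads than around Mycn. In the libraries numbered 1 the TEPC1165 reads were 16.4% of the PCT4961 reads over the island and 2.34% over 12 to 14 Mb. In those numbered 2 they were 4.00% and 1.51%. Among windows with at least 1000 PCT4961 reads, the 17 values from 11.2 to 13.2 Mb lay between 0.673% and 2.88%. The 8 values of the island ran from 1.27% to 70.0%, and 5 of them were above every value around Mycn. They were 20.7%, 8.77% and 70.0% in the libraries numbered 1 and 3.95% and 5.71% in those numbered 2. The remaining 3 lay within the Mycn range, among them 12:8600001-8800000 of the libraries numbered 1 at 1.45%. Below 11.2 Mb and outside the island, 2 further values met the same minimum of reads. Window 12:10200001-10400000 had 236 TEPC1165 reads against 1572 PCT4961 reads in the libraries numbered 2, a percentage also above every value around Mycn, so a raised value was not particular to the island. Window 12:8200001-8400000 stood at 1.84% in those numbered 1, within the Mycn range. If TEPC1165 reads were removed at the Mycn ratio, window by window and to no less than 0, 2461 and 714 of 2806 and 1134 would be left in the island. A fixed ratio for each pair of libraries was assumed, although the ratio varied between the windows around Mycn. The subtraction therefore does not show where the TEPC1165 reads come from, which was not tested. How many TEPC1165 fragments are detected through reads of the same-numbered PCT4961 library was not tested.

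**Figure D4:**
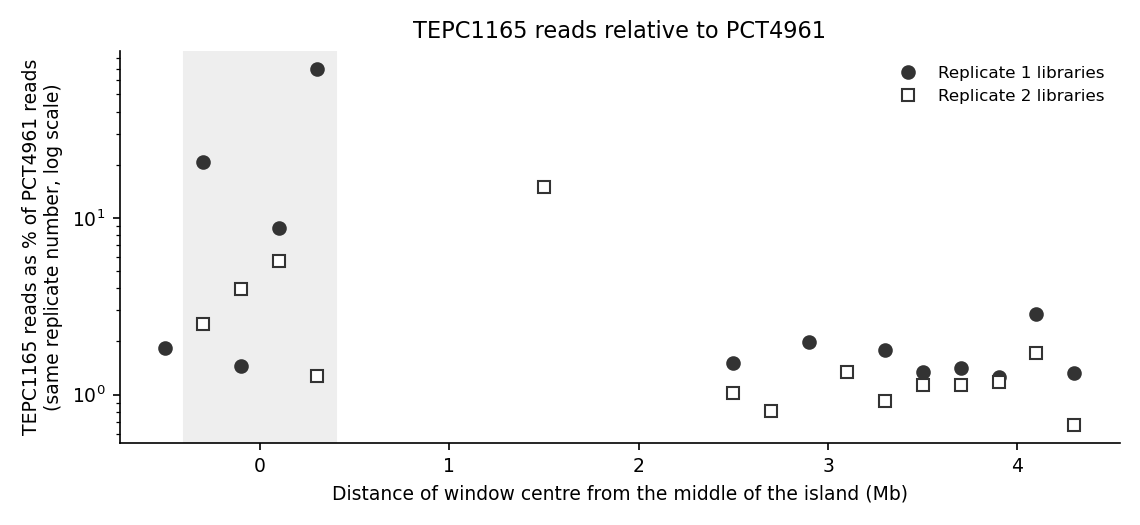
TEPC1165 reads as percent of PCT4961 reads, between libraries with the same number (log axis), for windows with at least 1000 PCT4961 reads, by distance from the middle of the island (grey band); filled circles are the libraries numbered 1 and open squares those numbered 2. The windows around Mycn lie between 0.673% and 2.88%, the island windows spread from 1.27% to 70.0%, and 1 window between the 2 stretches also lies above every window around Mycn.

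The fit across all windows gave the size of the tumor difference at each member. Of the 13 windows 10 had at least 10 reads in at least 2 libraries and were fitted, and those starting at 7.4, 7.8 and 9.6 Mb were not. For the island as a whole the log2 fold change of PCT4961 over TEPC1165 was 4.29 (SE 0.60). The median of all fitted windows was −1.01, and no shift by that median was applied. By window the log2 fold change was 4.19 (SE 1.07) at 8.4 Mb and 5.79 (SE 1.21) at 8.6 Mb. It was 4.69 (SE 1.00) at 8.8 Mb and 2.57 (SE 1.66) at 9.0 Mb. In the flanks the SE was 2.76 or more, and the fold changes ranged from −3.35 at 7.6 Mb to 6.46 at 9.2 Mb. Of the 10 fitted windows 2, at 8.6 and 8.8 Mb, passed edgeR's quasi-likelihood test as higher in PCT4961, where 0.348% of all fitted windows did, and 0 passed as lower, where 0.174% did. In 8 of the 10 both PCT4961 libraries were above both TEPC1165 libraries, where 16.2% of all fitted windows were. The stretch was chosen with these calls known, so nothing is read from those counts.

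Among the libraries, TEPC1165 replicate 1 moved the island's value most. Without it the log2 fold change was 5.36, and with the other libraries left out in turn it ran from 4.08 to 4.82. With the replicate number as a block it was 4.21, but neither window kept its call. With DESeq2 size factors it was 3.42, and 0.55 when fragments detected were fitted instead of reads.

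Over the 4 libraries 12:8800001-9000000 had the highest mean RPM of the island. Nearness to it was the Euclidean distance in log2(RPM + 1) over the same 4 libraries. Outside the stretch and the bait region, the 3 nearest windows of the genome all lay at the bait's end of chromosome 12. They were 12:115600001-115800000 at a distance of 1.26, 12:102200001-102400000 at 1.65 and 12:107200001-107400000 at 1.79. The first had 9254 and 11378 reads in PCT4961 and 396 and 695 in TEPC1165, on 40 to 51 of 71 fragments, so more of its fragments were detected than in the island window. The second had 5348 and 6761 reads in PCT4961 and 692 and 1283 in TEPC1165, and the third 1474 and 6425 against 418 and 438. With 4 libraries this likeness is a description of the reads and says nothing of shared function.

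The highest TEPC1165 window from 3 to 6 Mb above its highest window of chromosome 15 was 15:66400001-66600000, 4.6 Mb away, with 5326 and 3870 reads (3069 and 2465 RPM) on 12 and 11 of 70 fragments. PCT4961 had 260 and 560 reads there. The highest PCT4961 window of the island had 3744 and 8578 RPM on 31 and 37 of 68 fragments. The values stand side by side without a test, since both windows were picked as the highest of their stretch. A nearby stretch of 4 windows at lower coordinates of chromosome 15 had a mean of 478 and 829 RPM per window in TEPC1165. There 11 and 16 of 240 fragments were detected. Whether the chromosome 15 window stands apart from its neighbours was not tested.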

How the data were processed

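The authors deposited, per the file headers, tables of read counts on HindIII fragments in windows of 200 kb of mm9, with the number of fragments detected and present. The counts were not normalized. Which aligner was used, where the bait lies and whether duplicate reads were removed is not given in the sources used here. Reads were scaled to RPM over reads outside the bait region. Windows reaching 10 reads in 2 or more libraries were fitted with edgeR 4.0.16 (R 4.3.3; TMM, prior count 2, tumor as the only term, two-sided quasi-likelihood test, Benjamini-Hochberg threshold 0.05), with summed island reads as 1 added feature; the SE is the fold change over the square root of F. DESeq2 1.42.0 was an alternative. The script was tested on simulated counts. Python 3.11.15, pandas 2.3.3 and scipy 1.17.1 gave the descriptive values and Wilson intervals, which cover counting error only, as reads carry no molecular identifiers. All 13 windows are named; further windows were named by fixed rules (the 3 most alike, and the highest of 10 to 11 Mb, of 12 to 14 Mb and of 3 to 6 Mb beyond the highest TEPC1165 window of chromosome 15). Members and lists were chosen with earlier results of these data known. GRCm38 served only for gene order, 6 genes to each side, and for the promoters, which matched all 3 genes.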

Additional observations from a re-analysis of the deposited data

How the results depend on the processing

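The island's log2 fold change, 4.29, kept its sign under every alternative run. It was 3.42 with DESeq2 size factors, 5.04 over 8.6 to 9.0 Mb, 5.38 with TEPC1165 reads reduced window by window at the 12 to 14 Mb ratio and 0.55 on detected fragments, and 4.08 to 5.36 with a library left out. The 12 windows called higher in PCT4961 over the genome were 7 with a replicate block, 0 with DESeq2 as the test (165 windows of either direction at unadjusted p under 0.05) and 0 to 35 with a library left out, where the lone library is assumed to vary like the others. It was 0 without PCT4961 replicate 2 (9 at unadjusted p under 0.05). With the replicate block the island's fold change was 4.21 and 0 in place of 2 of its windows were called. The correlation of 0.66 between same-numbered libraries is a hint of pairing from the data, not from the labels. The PCT4961 island was 137 times the other autosomes, 189 without their highest 1% of windows and 35.9 by detected fragments. The TEPC1165 island was 7.76 times, and 26.7 by detected fragments. The island's share of PCT4961 reads was 1.85%, and 1.16% of all reads. Its ratio to the flanks, 33.8, rests on 2 libraries that differ (15.3 and 52.2). Windows with few fragments and piles of reads limit every flank value.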
